A study of Mus musculus with 7 samples.

Results

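The genes described here are 29 mouse counterparts of human genes linked to amyotrophic lateral sclerosis (ALS) and frontotemporal dementia (FTD), measured by RNA-seq in motor cortex. They were chosen by gene symbol from a list of names, and the rule used no measured value, though the list was drawn up with earlier results of these data known. All 29 were found among the 54532 genes of the deposited count table, and all 29 passed the filter on low counts that left 16308 genes for testing. The samples are 7 libraries, of which 3 are labelled WT and 4 are labelled cKO. All animals of both groups received the GA100 virus in both lateral ventricles at postnatal day 0, and motor cortex was taken 3 months later, after behavioural tests. The series title speaks of C9orf72-poly-GA mice and of TIA1, a stress granule protein. The question the design puts is therefore how the knockout changes RNA levels in cortex that carries the poly-GA virus. There was no group without the virus, so nothing below measures an effect of poly-GA itself. The labels used here do not name the deleted gene or exons, the Cre driver, the strain, the sex, the virus promoter or the cells it reached. They also do not say in so many words that each library is a separate mouse, so each p-value reflects only how these libraries scatter, which may be technical.

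ALS is a loss of upper and lower motor neurons, FTD a loss of frontal and temporal cortex, and the same genes can cause either or both. Their products fall into a few cell functions: RNA-binding proteins that shuttle between nucleus and cytoplasm and enter stress granules, adaptors and enzymes of autophagy and the ubiquitin system, the cytoskeleton and its motors, endosomes and lysosomes, mitochondria and the defence against oxidants, and the synapse. A repeat expansion in the first intron of C9orf72 is the most common inherited cause of both diseases in people of European descent. The expanded RNA is translated without the usual AUG start codon into dipeptide repeat proteins, and poly-GA, a chain of glycine and alanine, is the most aggregation-prone of them. TIA1 is itself an ALS and FTD gene. It binds U-rich stretches of RNA, many of them in 3′ untranslated regions (3′UTRs), and nucleates stress granules.

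Because TIA1 favours runs of U, the longest run of T in the annotated 3′UTR of each gene was recorded (GENCODE M21, mm10, transcript strand, where T stands for U in the RNA). A run of at least 8 T was present in 8 of the 29 genes (27.6%) and in 4568 of 13974 tested genes with a 3′UTR (32.7%). The minimum of 8 was chosen after the values were known, and a run is a description of sequence, not a measured binding site. The 4 windows of 30 bases shown here carry the longest run of the list (Pfn1), the runs of the synaptic gene Unc13a and of Vapb, whose groups did not overlap, and that of Smcr8, a partner of C9orf72. Capitals mark the run, and each is written 5′ to 3′.
Pfn1, chr11:70651869-70651898, minus strand: tggtcTTTTTTTTTTTTTTTTTTTTctgaa
Unc13a, chr8:71626943-71626972, minus strand: tttttggTTTTTTTTTTTTTTTggagggtt
Vapb, chr2:173781212-173781241, plus strand: tgcctgtagTTTTTTTTTTTgcacacagat
Smcr8, chr11:60786121-60786150, plus strand: agttttgggTTTTTTTTTTTaaacaggatc

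Library totals lay between 15181390 and 16463721 counts, so depth was alike in all 7 libraries. In the check of the labels, Tia1 stood at 60.7, 95.8 and 69.0 CPM (a gene's counts relative to the library's total, corrected for library composition) in WT and at 81.4, 80.4, 72.7 and 81.9 in cKO. Tia1 RNA was thus not lower in the libraries labelled cKO (log2 fold change 0.07, adjusted p = 0.914 by edgeR's quasi-likelihood test), and which exons the reads cover cannot be seen in gene counts. WT replicate 1 and cKO replicate 1 had Xist counts of 15217 and 19151 and 0 counts of the Y-linked Ddx3y, and the other 5 libraries had 1073 or more Ddx3y counts. Markers of several cell types were summed in each library, with no test of the sums, and the groups' ranges overlapped in the oligodendrocyte, excitatory neuron, microglial and striatal sums. In the excitatory neuron sums they only just met, at 4802 CPM in WT replicate 3 and 4803 in cKO replicate 1. Summed oligodendrocyte markers were 3875 to 6030 CPM in WT and 4203 to 8381 in cKO, with 9 of 9 at a positive log2 fold change. Of the 9, 3 were higher at an unadjusted p under 0.05 in edgeR, against 4.22% of all genes. Summed excitatory neuron markers were 4802 to 5362 CPM in WT and 3918 to 4803 in cKO, with 7 of 9 negative. Of the 9, 4 were lower and 0 higher at an unadjusted p under 0.05 in edgeR, against 2.91% and 4.22% of all genes. Microglial markers summed to 331 to 407 CPM in WT and 312 to 353 in cKO, with 7 of 8 negative. Markers of striatal neurons summed to 795 to 1066 CPM in WT and 860 to 1542 in cKO, with 7 of 7 positive. At the same unadjusted p there were 1 of 8 microglial markers, lower, and 1 of 7 striatal markers, higher. Choroid plexus and ependyma markers summed to 18.85 to 26.31 CPM in WT, with 6 of 6 tested positive. In cKO replicates 1 to 4 they summed to 25.86, 28.87, 21.24 and 180.9 CPM. Ttr alone was 153.6 CPM in cKO replicate 4 and at most 15.01 CPM in every other library. Markers of spinal motor neurons, some of them shared with other cholinergic neurons, summed to 11.9 to 13.8 CPM in WT and 13.4 to 32.8 in cKO, with 3 of 3 tested positive. Of these, the choline transporter gene Slc5a7 was higher in every cKO library (log2 fold change 0.98, unadjusted p = 0.00508, adjusted p = 0.680 in edgeR), and Mnx1 had 0 counts in every library. Slc5a7 was 6.60 to 7.04 CPM in WT and 7.66, 20.15, 16.64 and 9.65 in cKO replicates 1 to 4. The striatal sums were also highest in cKO replicates 2 and 3, at 1542 and 1151 CPM, and their part in Slc5a7 was not tested. In bulk tissue fewer cells of a type and less RNA per cell cannot be told apart, and the part of cell composition in the values below was not tested. cKO replicate 3 stood apart from the rest, and the log2 fold changes of the 29 genes without it are given below.

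None of the 29 genes differed between cKO and WT past an adjusted p of 0.05 (edgeR quasi-likelihood test, Benjamini-Hochberg adjustment over all 16308 genes), where the background was 0% of genes tested. Adjusted p-values of the 29 ran from 0.704 to 0.999. At an unadjusted p under 0.05 the count was 0 of 29, against 7.14% of all genes, of which 4.22% of genes were higher and 2.91% lower in cKO. DESeq2 called 0 of the 29 against 0.0368% of all genes, and had 1 of 29 (Sqstm1, unadjusted p = 0.0444) at an unadjusted p under 0.05 against 6.43%. limma-voom called 0 of the 29 against 0%, and had 0 of 29 against 6.78% without adjustment. edgeR with a block for the replicate numbers of the titles called 0 of the 29 against 0.0123% of all genes, and had 0 of 29 against 7.52% without adjustment. Log2 fold changes of cKO over WT ran from -0.30 in Anxa11 to 0.23 in Ccnf. They were positive in 11 genes and negative in 18, with a median of -0.02, where all genes tested had 8445 positive and 7863 negative with a median of 0.01. The point estimate was within 10% of the WT level in 26 of the 29 genes. The others were Sqstm1 at -10.9%, Anxa11 at -18.5% and Ccnf at 17.3%.

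**Figure D1:**
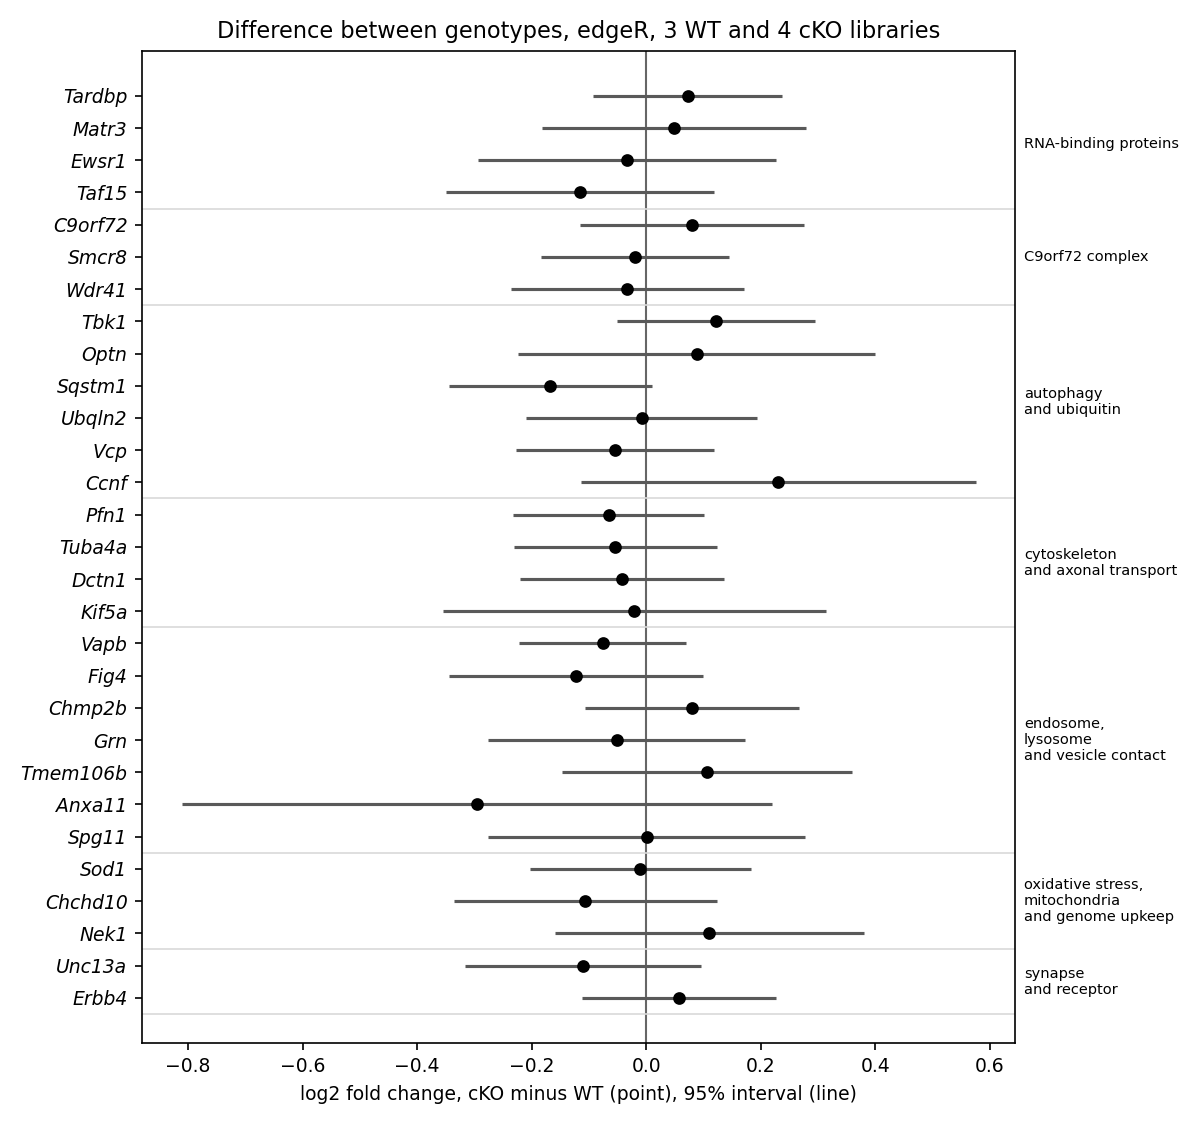
Log2 fold change of cKO over WT for each of the 29 genes (points) with its 95% interval (bars) from edgeR, grouped by role of the protein. Every interval includes 0, and the widest is that of Anxa11, from -0.81 to 0.22.

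The width of the intervals says how large a difference these 7 libraries leave room for. The 95% interval lay within 0.5 log2 units of 0, a 1.41-fold change, in 27 of the 29 genes. The exceptions were Anxa11, from -0.81 to 0.22, and Ccnf, from -0.11 to 0.58. The narrowest was that of Vapb, from -0.22 to 0.07. A p that misses the threshold does not show that the levels were equal. The WT and cKO libraries did not overlap in 3 of the 29 genes, where 7.38% of all genes did not overlap (3.97% higher and 3.42% lower in cKO). These were Tbk1 and Ccnf, higher in every cKO library, and Vapb, lower in every cKO library. With scaling by library size only, Tbk1 overlapped and C9orf72 did not, beside Ccnf and Vapb, and in the deposited FPKM the genes were again Tbk1, Ccnf and Vapb. An exact two-sided permutation test over the 7 libraries gives each of the 3 a p of 0.0571, the smallest that 3 against 4 libraries can give. Groups without overlap always reach this p, so it restates how the 3 genes were picked and adds no support.

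In level per transcript length the 29 genes spanned a wide range. Taken from the FPKM values the authors deposited (fragments per kilobase of gene, scaled to library depth), the mean over the 7 libraries was highest for Kif5a, 537, a kinesin heavy chain made mainly in neurons. It was followed by Sqstm1 at 112, Tuba4a at 107, Ubqln2 at 83.0, Dctn1 at 55.9, Vcp at 48.6, Matr3 at 47.5 and Tmem106b at 42.2. The lowest were Ccnf at 1.72, Optn at 3.35, Spg11 at 3.39, Anxa11 at 4.12, Nek1 at 4.73 and C9orf72 at 5.31. C9orf72 and its partners Wdr41 at 5.82 and Smcr8 at 8.11 lay close together. Kif5a was 543 ± 16.6 FPKM in WT (SD, n = 3) and 533 ± 114 in cKO (SD, n = 4), so the cKO spread exceeded the difference of the means. Ccnf was 1.57 ± 0.142 in WT and 1.84 ± 0.125 in cKO, and Sqstm1 was 119 ± 10.7 and 106 ± 4.90 FPKM.

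**Figure D2:**
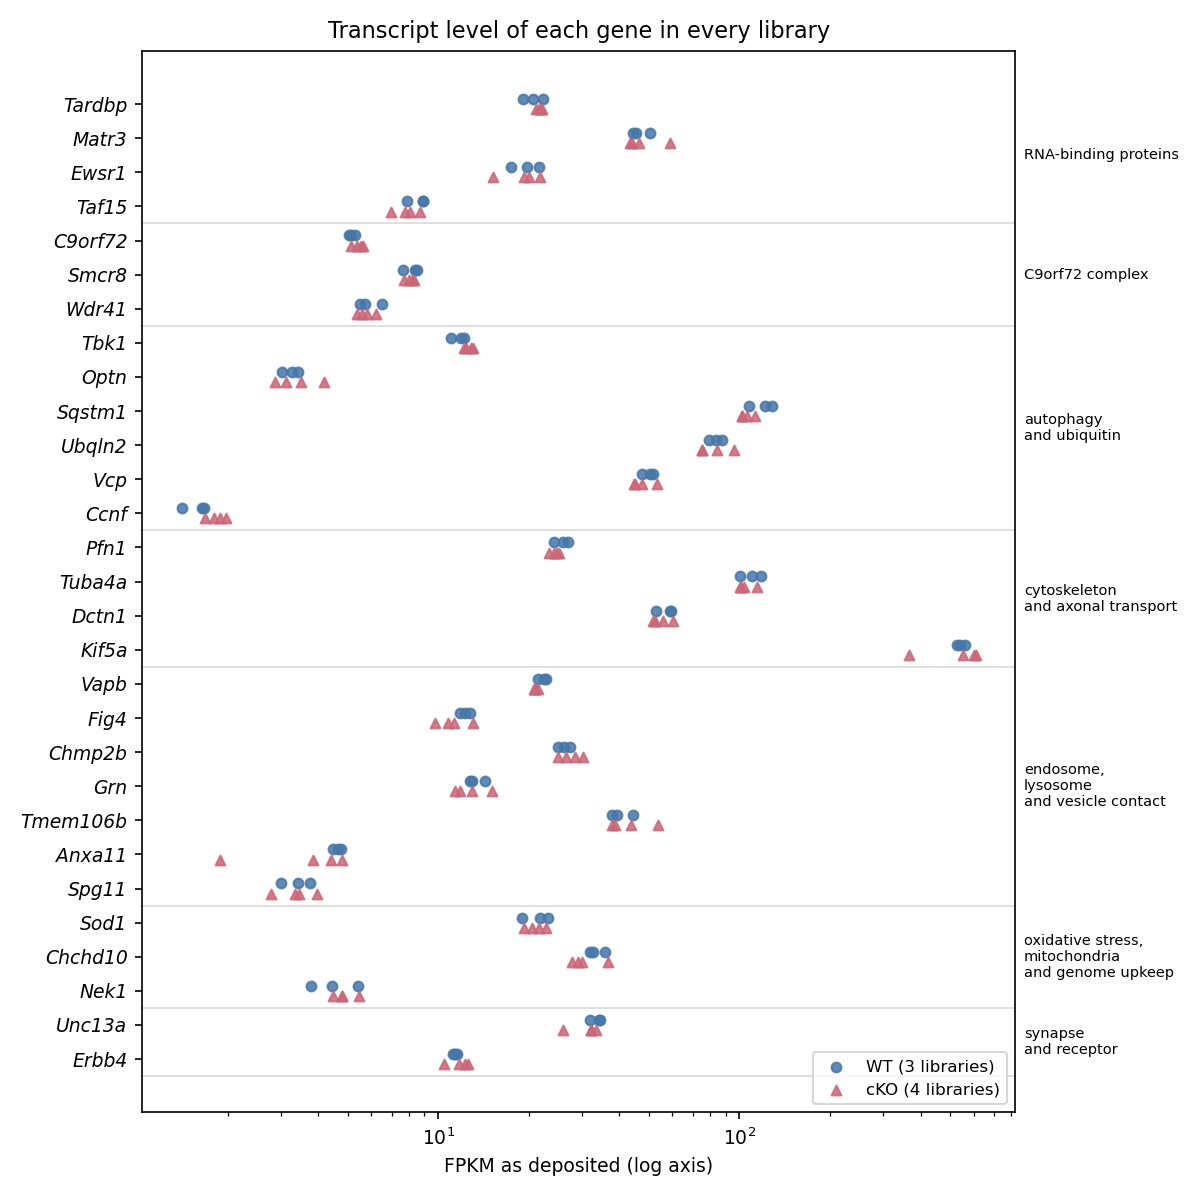
FPKM of the 29 genes in each of the 7 libraries (log axis), grouped by role, with WT libraries as circles and cKO libraries as triangles. Means over libraries run from 1.72 for Ccnf to 537 for Kif5a, and the ranges of both groups overlap in all genes but Ccnf, Tbk1 and Vapb.

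The RNA-binding proteins were Tardbp, Matr3, Ewsr1 and Taf15. Tardbp (chromosome 4, 148612382 to 148627019, minus strand) encodes TDP-43, the protein that leaves the nucleus and aggregates in most ALS. It stood at 149, 176 and 161 CPM in WT and 171, 166, 172 and 173 in cKO. WT replicate 2 was the highest of all 7 and WT replicates 1 and 3 the lowest, so the groups overlapped (log2 fold change 0.07, interval -0.09 to 0.24). Matr3, a nuclear matrix protein that binds RNA, was 447, 442 and 497 CPM in WT and 439, 463, 578 and 431 in cKO. Only cKO replicate 3 lay above the WT range, and the log2 fold change was 0.05 (-0.18 to 0.28), which turned to -0.06 without that library. Ewsr1 and Taf15 are related RNA-binding proteins that act in transcription and splicing. Ewsr1 was 103, 129 and 117 CPM in WT and 119, 115, 89.5 and 130 in cKO, with cKO replicate 3 the lowest of the 7 (log2 fold change -0.03, -0.29 to 0.23, and 0.06 without that library). Taf15 was 23.0, 26.2 and 25.9 CPM in WT and 22.9, 23.8, 20.3 and 25.6 in cKO, again lowest in cKO replicate 3 (-0.12, -0.35 to 0.12). Of the 4 genes, 2 had positive and 2 negative log2 fold changes, with a median of 0.01.

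C9orf72, Smcr8 and Wdr41 form one complex, which acts on small GTPases in autophagy and at lysosomes. C9orf72 (chromosome 4, 35191285 to 35226175, minus strand) was 24.2, 23.8 and 23.3 CPM in WT and 24.0, 24.9, 25.9 and 25.7 in cKO. Of the cKO libraries, 3 lay above every WT library and cKO replicate 1 within the WT range, and the log2 fold change was 0.08 (-0.12 to 0.28, adjusted p = 0.867 in edgeR). The mouse gene has no expansion, and the counts show the level of the endogenous gene. Smcr8 was 68.7, 62.3 and 67.8 CPM in WT and 62.8, 66.8, 66.9 and 65.1 in cKO, all 4 inside the WT range, with a log2 fold change of -0.02 (-0.18 to 0.14). Wdr41, which anchors the complex to the lysosome, was 31.5, 33.0 and 37.1 CPM in WT and 33.5, 31.1, 35.5 and 32.3 in cKO (-0.03, -0.24 to 0.17). The 3 subunits thus stayed within narrow ranges in all 7 libraries.

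In the autophagy and ubiquitin group, Sqstm1 had the smallest p of the 29. It encodes the receptor that links ubiquitin-tagged cargo, poly-GA aggregates among it, to the autophagosome membrane (chromosome 11, 50199366 to 50210827, minus strand). It stood at 430, 363 and 409 CPM in WT and at 382, 346, 355 and 344 in cKO. Of the cKO libraries 3 lay below every WT library, and the groups overlapped only because cKO replicate 1 lay above WT replicate 2. The log2 fold change was -0.17 with a standard error of 0.08 (interval -0.34 to 0.01, unadjusted p = 0.0618, adjusted p = 0.704 in edgeR). Without WT replicate 2 it was -0.24 (unadjusted p = 0.016, adjusted p = 0.494 in edgeR), and without both WT replicate 1 and cKO replicate 3 it was -0.11. Tbk1 is the kinase that phosphorylates this receptor and optineurin (chromosome 10, 121546455 to 121586787, minus strand). It was 42.9, 47.8 and 46.4 CPM in WT and 50.8, 49.0, 51.1 and 48.1 in cKO. All 4 cKO libraries lay above the 3 WT libraries, though cKO replicate 4 and WT replicate 2 were nearly level, and the log2 fold change was 0.12 (-0.05 to 0.30, adjusted p = 0.757 in edgeR). Optn, the optineurin receptor, was 12.8, 11.5 and 12.2 CPM in WT and 13.3, 10.9, 15.7 and 11.8 in cKO (0.09, -0.22 to 0.40). The cKO libraries included both the lowest and the highest of the 7, and without cKO replicate 3 the log2 fold change was -0.02.

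Ccnf encodes cyclin F, the substrate-binding part of a ubiquitin ligase (chromosome 17, 24223232 to 24251409, minus strand). It was 5.14, 5.13 and 4.36 CPM in WT and 5.91, 6.19, 5.55 and 5.26 in cKO. All 4 cKO libraries lay above WT, on 66 to 98 counts per library, and the log2 fold change of 0.23 had a standard error of 0.16 (adjusted p = 0.770 in edgeR). Ubqln2, an X-linked shuttle factor that carries ubiquitinated proteins to the proteasome, was 279, 267 and 293 CPM in WT and 253, 284, 320 and 254 in cKO. The cKO values surrounded the WT range (-0.01, -0.21 to 0.19). Vcp, the ATPase that pulls ubiquitinated proteins out of complexes and membranes, was 250, 232 and 244 CPM in WT and 221, 233, 258 and 219 in cKO (-0.05, -0.23 to 0.12). Both Ubqln2 and Vcp were highest in cKO replicate 3. Of the 6 genes, 3 had positive and 3 negative log2 fold changes.

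The 4 genes of the cytoskeleton and axonal transport all had negative log2 fold changes, from -0.07 to -0.02 with a median of -0.05, and every interval spanned 0. Kif5a (chromosome 10, 127225696 to 127263348, minus strand), which carries mitochondria and neurofilaments along axons, was 3685, 3952 and 3769 CPM in WT. In cKO it was 3902, 4249, 2552 and 4294. The value in cKO replicate 3 was 0.650 times the median of the other libraries, while cKO replicates 2 and 4 were the highest of all. The log2 fold change was -0.02 (-0.36 to 0.31) with all libraries and 0.12 (-0.06 to 0.30) without cKO replicate 3. Dctn1, the large subunit of dynactin, which couples dynein to cargo, was 384, 346 and 383 CPM in WT and 347, 395, 335 and 365 in cKO (-0.04, -0.22 to 0.14). Tuba4a, an alpha-tubulin, was 407, 374 and 438 CPM in WT and 387, 377, 423 and 378 in cKO, all within the WT range (-0.05, -0.23 to 0.12). Pfn1, an actin-binding protein with the run of 20 T printed above, was 64.6, 58.5 and 62.3 CPM in WT and 60.3, 58.7, 56.1 and 61.1 in cKO (-0.07, -0.23 to 0.10). Its lowest value was again in cKO replicate 3.

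Endosomes, lysosomes and membrane contacts are the field of Vapb, Fig4, Chmp2b, Grn, Tmem106b, Anxa11 and Spg11. Vapb tethers the endoplasmic reticulum to other organelles (chromosome 2, 173737511 to 173784336, plus strand). It was 162, 162 and 153 CPM in WT and 150, 150, 152 and 150 in cKO. Every cKO library lay below every WT library, by a margin between WT replicate 3 and cKO replicate 3 of less than 1 CPM, and the log2 fold change was -0.08 (-0.22 to 0.07, adjusted p = 0.820 in edgeR). Fig4, a phosphatase of the endosomal phosphoinositide complex, was 38.5, 40.7 and 41.7 CPM in WT and 32.4, 35.6, 42.9 and 37.2 in cKO. Here 3 cKO libraries lay below every WT library and cKO replicate 3 was the highest of the 7. The log2 fold change was -0.12 (-0.34 to 0.10), and without cKO replicate 3 it was -0.21 with an unadjusted p of 0.036 and an adjusted p of 0.493 in edgeR. Without that library Fig4 and Sqstm1 were the 2 of 29 genes at an unadjusted p under 0.05, both lower, against 4.05% of all genes lower.

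Anxa11 encodes an annexin that tethers RNA granules to lysosomes for transport (chromosome 14, 25842156 to 25886804, plus strand), and it had the largest change and the widest interval. It was 19.1, 19.8 and 18.5 CPM in WT and 20.1, 16.0, 7.78 and 18.4 in cKO. The value in cKO replicate 3 was 0.414 times the median of the other 6 libraries, and cKO replicate 1 was the highest of all. The log2 fold change was -0.30 (-0.81 to 0.22, adjusted p = 0.799 in edgeR), and without cKO replicate 3 it was -0.08 (-0.33 to 0.17), so 1 library decides its size. Tmem106b, a lysosomal membrane protein whose common variants modify FTD risk, was 262, 275 and 308 CPM in WT and 264, 305, 372 and 270 in cKO (0.11, -0.15 to 0.36). Only cKO replicate 3 exceeded the WT range, and without it the log2 fold change was -0.02. Grn, the gene of progranulin, which is made mostly by microglia and neurons, was 49.5, 44.8 and 44.8 CPM in WT and 45.7, 39.9, 52.1 and 41.3 in cKO (-0.05, -0.28 to 0.17). Chmp2b, a subunit of the ESCRT-III complex that closes off vesicles, was 50.4, 48.7 and 52.9 CPM in WT and 48.8, 51.9, 58.2 and 55.3 in cKO (0.08, -0.11 to 0.27). Spg11, which serves the rebuilding of lysosomes, was 24.1, 30.3 and 27.6 CPM in WT and 28.0, 32.1, 22.3 and 27.1 in cKO, with a log2 fold change of 0.00 (-0.28 to 0.28). Grn, Tmem106b and Chmp2b were each highest, and Anxa11 and Spg11 lowest, in the same library, cKO replicate 3.

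Sod1, Chchd10 and Nek1 stand for the defence against oxidants, mitochondria and DNA repair. Sod1, the cytosolic superoxide dismutase, was 91.6, 76.0 and 86.7 CPM in WT and 91.4, 77.4, 85.8 and 82.0 in cKO, all 4 inside the WT range (-0.01, -0.20 to 0.18). Chchd10, a protein of the mitochondrial intermembrane space, was 56.3, 50.6 and 51.4 CPM in WT and 58.6, 46.2, 43.6 and 47.6 in cKO. The cKO group held the highest value and the 3 lowest, and the log2 fold change was -0.11 (-0.34 to 0.12). Without cKO replicate 1 it was -0.21 (unadjusted p = 0.0351, adjusted p = 0.490 in edgeR), without cKO replicate 3 it was -0.06, and without both WT replicate 1 and cKO replicate 3 it was -0.01. Nek1, a kinase of the DNA damage response and the cilium, was 29.6, 43.0 and 35 CPM in WT and 38.2, 38.0, 35.2 and 43.4 in cKO. WT replicate 1 was the lowest of the 7, and the WT libraries differed more among themselves than the group means did (0.11, -0.16 to 0.38).

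At the synapse, Unc13a primes vesicles for release, and its transcript is one that TDP-43 protects from a cryptic exon in human neurons. It was 434, 405 and 433 CPM in WT and 425, 409, 327 and 410 in cKO. cKO replicate 3 was 0.783 times the median of the others while the other 3 cKO libraries lay inside the WT range, and the log2 fold change was -0.11 (-0.32 to 0.10). It was -0.04 without cKO replicate 3 and -0.02 without both that library and WT replicate 1. Erbb4, the neuregulin receptor, which in cortex is found mainly on inhibitory neurons, was 138, 141 and 143 CPM in WT. In cKO it was 131, 146, 155 and 153, on both sides of the WT range (0.06, -0.11 to 0.23). Summed markers of inhibitory neurons were also highest in cKO replicate 3, 1324 CPM against 850 to 1050 in the other 6 libraries. The single markers did not move together there. Gad1 (592 CPM), Gad2 (415), Slc32a1 and Adarb2 were highest in that library, Pvalb (24.3 CPM) and Lhx6 (21.6) were lowest in it, and Sst and Vip lay between. The part of these markers in the Erbb4 values was not tested.

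cKO replicate 3 gave the highest value of the 7 libraries for 11 of the 29 genes and the lowest for 9. By the gap between the most distant library and its nearest neighbour, set against the range of the cKO group, it stood apart from the other 3 cKO libraries in 2 of the 29 genes, Unc13a and Vapb. Any 1 cKO library stood apart in this way in 6.82% of all genes and cKO replicate 3 in 4.33%. On a log2 scale its mean distance from each gene's median over the libraries was 0.216, against 0.0596 to 0.0961 in the other 6. Its largest distances were -1.20 in Anxa11, -0.61 in Kif5a, -0.38 in Ewsr1 and -0.33 in Unc13a below the median, and 0.44 in Tmem106b, 0.37 in Matr3 and 0.35 in Optn above it. The median distance without sign in this library was 0.148 for the 29 genes and 0.151 for the 11622 genes with a mean of at least 5 CPM, so the disease genes lay about as far from their medians in it as other genes did. Without this library the log2 fold changes of Matr3, Ewsr1, Optn, Kif5a and Tmem106b changed sign, as given above. Those of Taf15 (-0.07), Anxa11 (-0.08), Unc13a (-0.04), Chchd10 (-0.06), Dctn1 (-0.02), Chmp2b (0.03) and Erbb4 (0.02) moved towards 0. Those of Vcp (-0.12), Grn (-0.14), Fig4 (-0.21), Ubqln2 (-0.09), Tuba4a (-0.10), Wdr41 (-0.08), Spg11 (0.08) and Nek1 (0.15) moved away from it. The other 9 genes moved by less than 0.03, to 0.06 in Tardbp and C9orf72, -0.04 in Smcr8, 0.10 in Tbk1, -0.17 in Sqstm1, 0.24 in Ccnf, -0.05 in Pfn1, -0.09 in Vapb and -0.03 in Sod1.

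**Figure D3:**
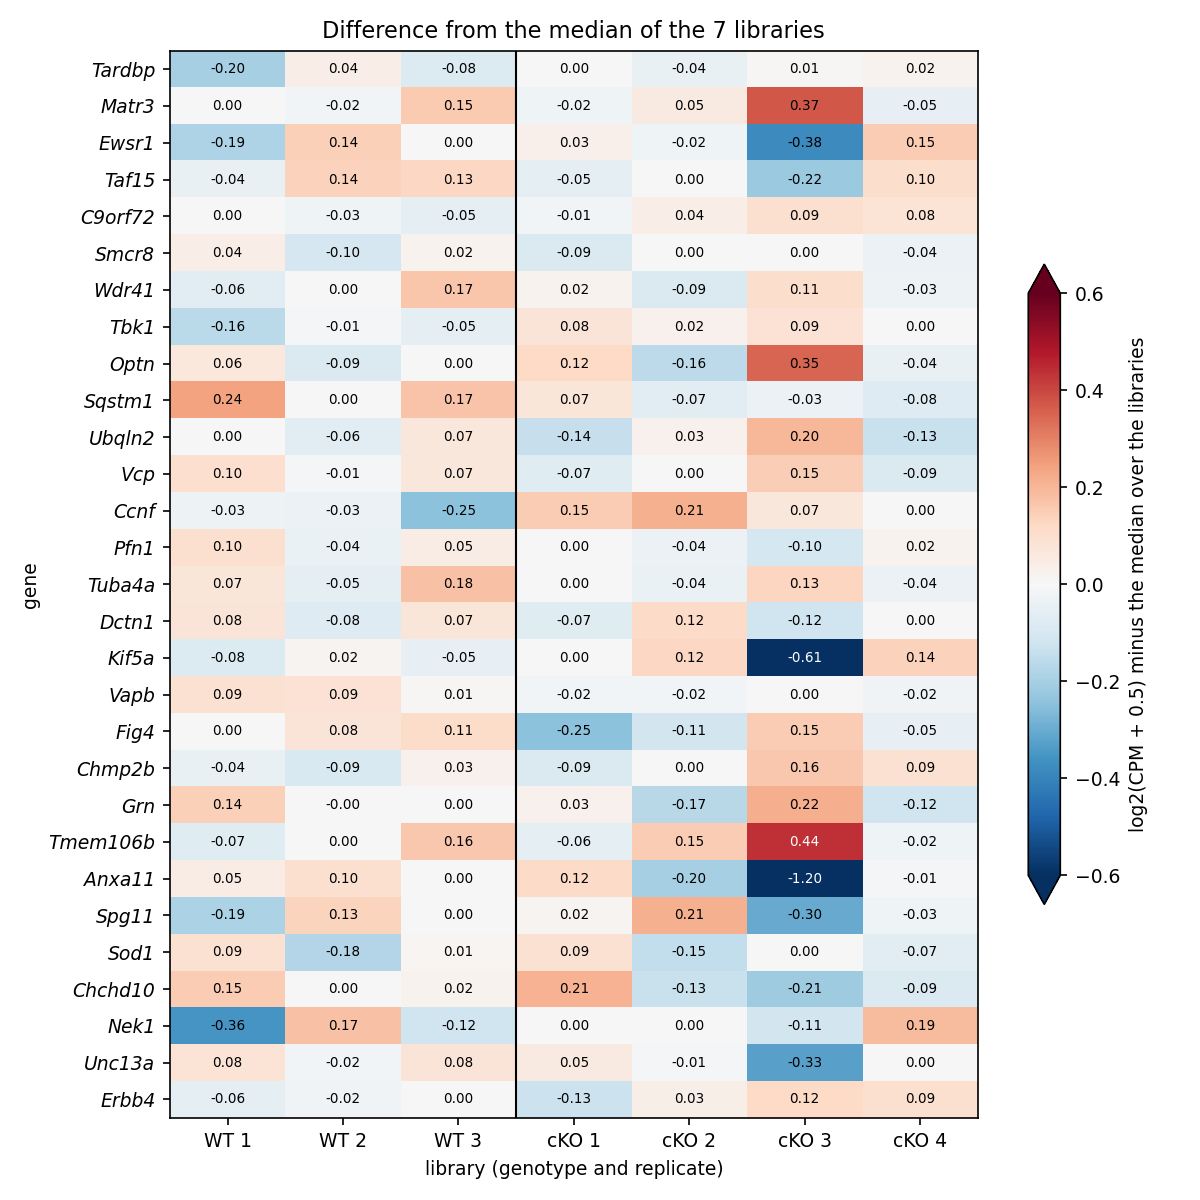
Log2 distance of each of the 29 genes from its own median over the 7 libraries, 1 column per library and 1 row per gene, with the value in each cell and colour for its sign and size, saturated at 0.6. The column of cKO replicate 3 holds the strongest colours, from -1.20 in Anxa11 to 0.44 in Tmem106b.

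The distances in this library ran with the base composition of the transcripts. Over all genes with a mean of at least 5 CPM, the fifth with the lowest GC (up to 44.1%) had a median distance of 0.18 in cKO replicate 3, and the fifth with the highest GC (from 55.9%) had -0.15. WT replicate 1 showed the opposite, -0.09 and 0.12, and the other 5 libraries lay between -0.03 and 0.02. Among the 29 genes, Tmem106b and Matr3 have the lowest GC, 38.5% each, and were both high in cKO replicate 3. Anxa11 at 55.3%, Unc13a at 55.1%, Kif5a at 53.8% and Ewsr1 at 53.2% were low there, though all have less than 55.9% GC. The other members between 52.6% and 55.4% GC lay nearer their medians or above them. They were Pfn1 (-0.10), Sqstm1 (-0.03), Sod1 (0.0), Ccnf (0.07) and Tuba4a (0.13). Above 55.9%, Chchd10 (-0.21) and Dctn1 (-0.12) were low and Grn was high. Spearman's rho between GC and distance across the 29 genes, which share the library and its depth and are not replicates, was -0.47 in cKO replicate 3, -0.38 in cKO replicate 2, -0.23 in cKO replicate 4 and 0.51 in cKO replicate 1. In WT replicates 1 to 3 it was 0.60, -0.10 and 0.07. Several genes did not follow that order in cKO replicate 3, among them Grn at 56.1% GC (0.22), Nek1 at 42.4% (-0.11) and Tardbp at 41.8% (0.01), and Spg11 and Optn have similar GC, 49.7% and 50.7%, but lay at -0.30 and 0.35. Summed CPM of 5 RNAs chosen after their values were seen (Meg3, Malat1, Miat and Neat1, long noncoding RNAs known to be largely nuclear, and Snhg11, a small nucleolar RNA host gene that the deposited table lists as protein coding) was 1018 in cKO replicate 3, 1858 and 1971 in WT replicates 1 and 3, and 3074 to 3622 in the other 4. The part of base composition and of these RNAs in the members' values was not tested.

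**Figure D4:**
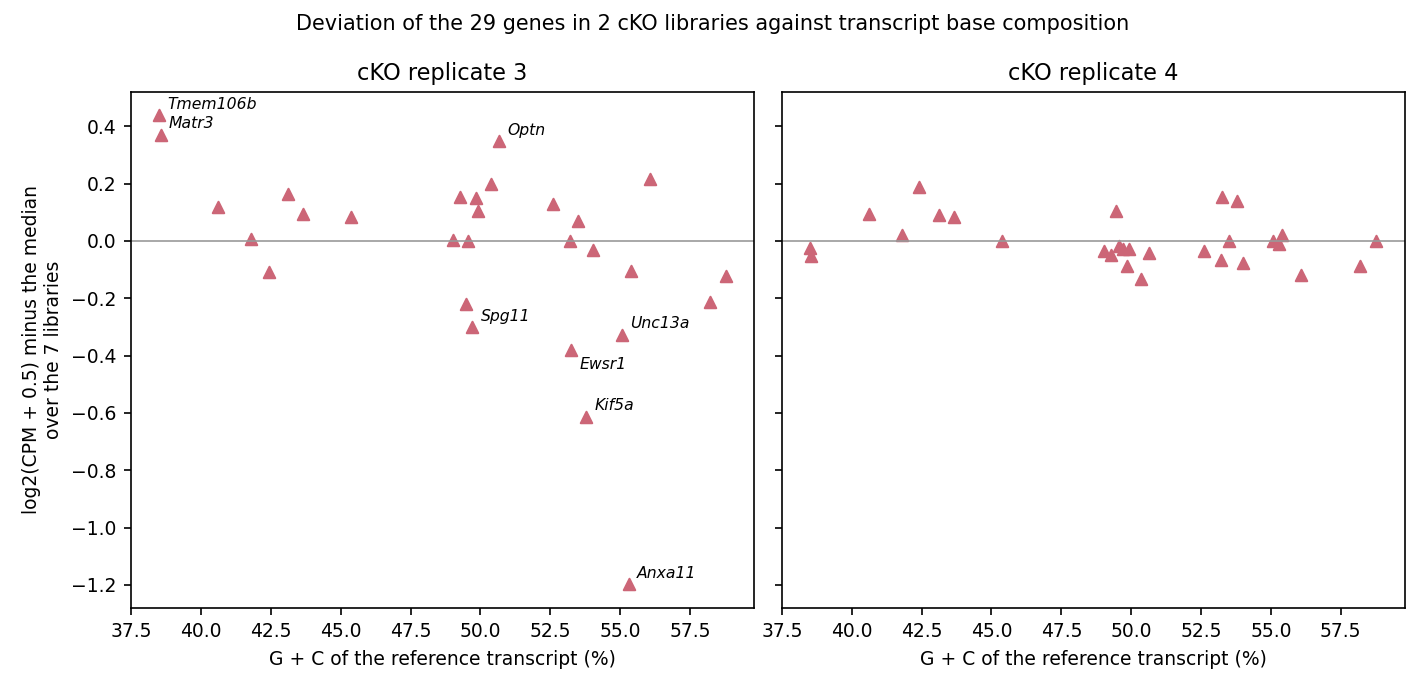
GC content of the transcript (x axis, percent) against the log2 distance from the gene's median (y axis), 1 point per gene, in cKO replicate 3 on the left and, for comparison, cKO replicate 4 on the right. On the left Tmem106b (0.44) lies highest and Anxa11 (-1.20) lowest, while the points on the right stay close to 0.

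With both of these libraries left out, 2 WT and 3 cKO libraries remained. Fig4 was then at a log2 fold change of -0.23 (unadjusted p = 0.0345, adjusted p = 0.762 in edgeR), Sqstm1 at -0.11 and Anxa11 at -0.08. Fig4 was the 1 gene of the 29 at an unadjusted p under 0.05, against 2.05% of all genes lower in cKO.

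The genes with a run of at least 8 T in the 3′UTR were Matr3, Ewsr1, Smcr8, Pfn1, Vapb, Nek1, Unc13a and Erbb4. Their log2 fold changes were positive in 3 and negative in 5, ran from -0.11 to 0.11 and had a median of -0.03. The 21 genes without a run had 8 positive and 13 negative values with a median of -0.02. Over all tested genes with a 3′UTR the median was 0.05 with a run and -0.02 without, and leaving out cKO replicate 3 brought these to 0.01 and -0.03. Without both WT replicate 1 and cKO replicate 3 they were 0.014 and -0.008. The part of base composition in these medians was not tested. The median 3′UTR length of the 29 was 1182 bases and that of all tested genes with a 3′UTR 1204 bases.

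Related genes were taken from 9 lists of pathway partners, and 0 of their 151 measured genes passed an adjusted p of 0.05 in edgeR, DESeq2 or limma-voom. At an unadjusted p under 0.05 there were 16 of 151 in edgeR against 7.14% of all genes, 12 in DESeq2 against 6.43% and 13 in limma-voom against 6.78%. With the replicate block the count was 10 against 7.52%. The counts of single lists below have the same background of 4.22% higher and 2.91% lower. In the list of 28 measured further ALS and FTD risk genes, 17 log2 fold changes were positive and 11 negative with a median of 0.04, and 3 higher and 2 lower reached an unadjusted p under 0.05. Those were Kank1 at 0.31, Atxn2 at 0.17 and Nefh, the heavy neurofilament subunit, at 0.23, and on the lower side Tnip1 at -0.22 and Sarm1 at -0.53. Sarm1, the enzyme that executes axon degeneration, was 39.0, 20.9 and 35.6 CPM in WT and 21.6, 20.5, 21.9 and 24.1 in cKO. WT replicate 2 lay among the cKO libraries, so the value rests on WT replicates 1 and 3 (standard error 0.17, unadjusted p = 0.00974). Mapt, the tau gene, was at -0.07.

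Paralogs give a measure of how much closely related product the cortex makes. Among 28 measured paralogs 13 were positive and 15 negative, with 1 at an unadjusted p under 0.05 in each direction, both Unc13 genes. Kif5c stood at 199 FPKM and Kif5b at 65.8, below Kif5a, with log2 fold changes of 0.01 and 0.19. Ubqln1 at 53.0 FPKM was below Ubqln2, and Vapa at 33.8 above Vapb, the latter pair with the same log2 fold change of -0.08. Unc13b at 2.46 FPKM was far below Unc13a. Unc13c was at a log2 fold change of 0.47, and its 7 libraries lay between 51.7 and 69.7 CPM except cKO replicate 2, at 117. Unc13d, at about 1 CPM, was at -0.83.

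Among 12 autophagy receptors and ATG8 proteins, 4 were positive and 8 negative with a median of -0.01, and Map1lc3a, which coats the autophagosome, had the smallest p at a log2 fold change of -0.22 (unadjusted p = 0.0469). The 15 cofactors of Vcp had 7 positive and 8 negative values with a median of -0.01. Its core partners Nploc4 and Ufd1 were at 0.00 and -0.02, while Ubxn7 was at 0.20 (unadjusted p = 0.0214), Yod1 at 0.30, Derl2 at 0.29 and Nsfl1c at -0.21 (unadjusted p = 0.0312). The 23 dynactin and dynein subunits were split into 11 positive and 12 negative, from -0.14 to 0.41, none at an unadjusted p under 0.05. Of the partners of Dctn1, Actr1a was at -0.10 and Dctn2 at -0.07.

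The 13 ESCRT-III and VPS4 genes had 5 positive and 8 negative values, with Chmp1b at 0.26 (unadjusted p = 0.0191), Chmp1a at -0.18, Chmp4c at -0.51 and Chmp2a, the closest relative of Chmp2b, at -0.04. The 16 partners of progranulin and the lysosome had 5 positive and 11 negative values, from -0.09 to 0.26, none at an unadjusted p under 0.05. Psap was at -0.05 and Sort1, the receptor that takes up progranulin, at -0.04. In neuregulin and ERBB signalling 8 of 10 were positive with a median of 0.13, and Erbin, which binds ERBB2, was at 0.37 with a standard error of 0.11 (unadjusted p = 0.00573, adjusted p = 0.680 in edgeR). Erbb3 and Egfr were both at 0.17. Among 13 genes of superoxide and peroxide defence 4 were positive and 9 negative, from -0.20 to 0.13 with a median of -0.08, none at an unadjusted p under 0.05. Sod2 was at 0.03 and Ccs, which delivers copper to Sod1, at -0.20.

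**Figure D5:**
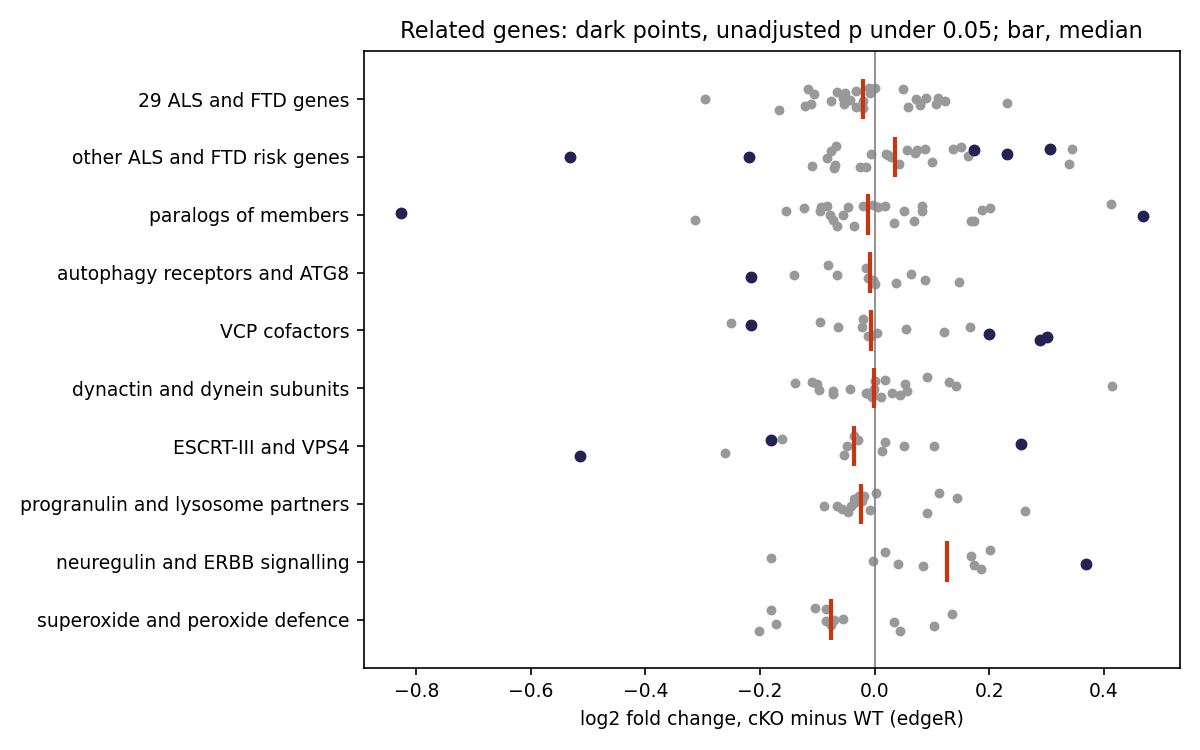
Log2 fold changes of cKO over WT for the 29 genes and the 9 lists of related genes, 1 point per gene, dark where the unadjusted p is under 0.05, with a bar at the median. Medians of the related lists run from -0.08 in superoxide and peroxide defence to 0.13 in neuregulin and ERBB signalling.

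Some values carry a limit from neighbouring genes. The library protocol describes no strand marking, so reads from a gene and from one on the other strand cannot be told apart where they overlap. Of the 29 genes 21 overlap another gene of the table, and in 7 of these the other gene has at least 5% as many counts. The largest was Fam171a2 beside Grn, with 232% of its counts, followed by Eif3j1 beside Spg11 with 152% and Scaf4 beside Sod1 with 45.8%. These shares compare the counts of whole genes. The length of each overlap and the reads within it were not measured, so how far the values of Grn, Spg11 and Sod1 are affected was not tested.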

How the data were processed

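Motor cortex of 3 WT and 4 cKO libraries was measured by RNA-seq. The authors deposited raw counts per gene and FPKM for 54532 genes. The tools named in the submitters' processing notes are DESeq2 1.20.0 and featureCounts 1.5.0-p3, with genome build mm10. Not given in the sources used here are the aligner, the annotation, the strand setting and how multiply matching reads were counted. The 29 genes and the lists of related genes were chosen with earlier results of these data known.

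Deposited counts went into edgeR 4.0.16 (R 4.3.3) with TMM factors, the default filterByExpr filter and the quasi-likelihood test of genotype over all 16308 genes. CPM are TMM-scaled, standard errors come from the F statistic, and intervals are 95%. The FPKM deposited by the authors served for levels between genes. DESeq2 1.42.0, limma 3.58.1, other scalings, filters, pseudocounts and left-out libraries were alternatives. The code was tested on simulated data. Every member was named, and of each related list the genes at an unadjusted p under 0.05. Direct partners and paralogs of members were named as well and were chosen for their role. In lists without a gene under that p only such partners were named, beside the range of the list.

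The WT and cKO titles share replicate numbers 1 to 3. Deviations of same-numbered libraries from their group means correlated at 0.110, 0.128 and 0.122, each above the minimum of 0.1, so a replicate block was fitted as an alternative. Libraries of unlike number correlated more strongly in WT replicate 2 with cKO replicate 4, at 0.210, and in WT replicate 1 with cKO replicate 3, at 0.1293. cKO replicate 4 has no partner. No pair of libraries agreed within sampling noise (chi-square per degree of freedom 4.42 to 23.1).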

Additional observations from a re-analysis of the deposited data

Results flagged for a closer look

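In 2 of the 29 genes 1 cKO library was set apart from the other 3 by a gap ratio above Dixon's 95% critical value for 4 samples, and chance alone flags about 1 in 20 groups. Unc13a was lowest in cKO replicate 3, at 327 CPM with a gap ratio of 0.83, where the other cKO libraries were 409 to 425. Vapb was highest in cKO replicate 3, at 152 CPM with a gap ratio of 0.919, although the whole cKO range was less than 3 CPM wide. Over all genes tested 6.82% had 1 cKO library set apart in this way, and 4.33% had cKO replicate 3 set apart. That library accounted for 706 genes, against 88 to 175 for each of the other 3.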

How the results depend on the processing

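None of the 29 genes passed an adjusted p of 0.05 under any of the 20 alternatives, and the smallest adjusted p was 0.489. Over all genes, the count called was 198 without a filter, 6 with DESeq2, 3 on log2(FPKM + 1) without a filter, 1 without WT replicate 1 and cKO replicate 3, 1 without cKO replicates 3 and 4, and 0 to 3 with 1 library left out. The cause was not tested. At an unadjusted p under 0.05 there was 1 of the 29 with library size only, without a filter, with DESeq2 (6.43% of all genes) and without either of those pairs of libraries. With 1 library left out there were 0 to 2. Beyond the shares already given, those over all genes are not given for these settings, so the counts say nothing particular about the 29. Groups without overlap numbered 3 to 9 with 1 library left out, where fewer libraries overlap less often (9.83% to 19.7% of all genes).

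With a replicate block for the shared numbers, 2 genes of all were called and 0 of the 29. Under the block Spg11 was at -0.00062, Ubqln2 at 0.027 and Sod1 at 0.0034, each on the other side of 0. It changed no other call.

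The direction never turned in 14 of the 29 genes. Spg11, near 0, was -0.0056 with RLE and with DESeq2, -0.006 with library size only, -0.0064 without a filter, -0.0065 with a strict filter, -0.0033 with limma-voom, -0.009 on log2(FPKM + 1) with and without a filter, -0.012 with a pseudocount of 0.1 and -0.0045 with a Y-linked covariate. Sod1 was 0.0068 with that covariate. Without WT replicate 1 and cKO replicate 3, Matr3 was -0.079, Dctn1 0.017, Kif5a 0.10, Tmem106b -0.059 and Sod1 0.04. Without cKO replicates 3 and 4, Matr3 was -0.039, Ewsr1 0.0079, Optn -0.0097, Kif5a 0.095, Chmp2b -0.015 and Erbb4 -0.026. With 1 library left out, ranges crossing 0 were -0.072 to 0.0029 for Smcr8, -0.091 to 0.078 for Spg11, -0.094 to 0.045 for Sod1, -0.014 to 0.25 for Nek1, -0.12 to 0.057 for Ewsr1, -0.087 to 0.038 for Wdr41, -0.09 to 0.027 for Ubqln2, -0.12 to 0.0033 for Tuba4a, -0.063 to 0.11 for Matr3, -0.023 to 0.15 for Optn, -0.097 to 0.12 for Kif5a and -0.016 to 0.18 for Tmem106b. Depth of about 15181390 counts or more left Ccnf, at 66 to 98 counts, the least precise by counting.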
